A study of Daphnia magna with 40 samples.

Results

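The probes described here were the 100 on the array whose signal in juvenile Daphnia magna exposed to fluvoxamine stood furthest above every other juvenile group. Each probe's value was log2 of its processed signal after subtraction of the 75th percentile of its own array on that scale, so 0 marks that percentile and differences are on a log2 scale. Of 14338 probes, 9432 passed the scanner software's test of being well above background on all 4 juvenile fluvoxamine arrays, and the 100 with the largest margin were taken. The margin is the mean of the 4 fluvoxamine arrays minus the highest of the means of the 4 other juvenile groups. The members were thus chosen by the juvenile values, which are given as a description, with no test. The adult arrays took no part in the choice.

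The 40 arrays were hybridised with RNA of whole animals of clone F, a laboratory line kept by parthenogenesis, in 10 groups of 4. In each stage the groups were fluvoxamine at 10 µg/L (FV10), fluoxetine at 40 µg/L (FX40), nonylphenol at 20 µg/L (NP20), nonylphenol at 60 µg/L (NP60) and acetone alone. Every exposure carried acetone at 0.1 mL/L, and no group without acetone was analysed here. The labels spell fluvoxamine as fluovoxamine and call the juveniles Neonate in the sample titles. The design text has 30 ppb of fluvoxamine and 80 ppb of fluoxetine in place of the labels' doses, a conflict not settled by the sources used here. Juveniles were under 24 h old at the start, were exposed for 3 days, and were frozen as pools of 20 per replicate. Adults were egg-carrying females aged 8 to 9 days when exposure began. It lasted 3 broods, or 10 to 14 days, and the brood pouch was emptied of eggs just before freezing. The labels do not say how many females made an adult sample or whether they came from separate vessels. The adult p-values therefore cover no more than the variation among these arrays, part of which may be technical.

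Fluvoxamine and fluoxetine, both used as antidepressants, inhibit the serotonin transporter and so slow the removal of serotonin released by nerve cells. In crustaceans serotonin acts as a neurotransmitter and as a neurohormone, and it takes part in the control of feeding, energy stores and reproduction. Nonylphenol forms when certain surfactants break down. The probes carry IDs only. Of the 14338 IDs, 0 were found in the RefSeq gene table of this species, so no gene name, function or position is given for any member, and no sequence is shown.

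Across all probes, between 57.9% and 85.42% were well above background on the other 16 juvenile arrays and between 54.03% and 86.6% on the 20 adult arrays. The 75th percentile of the unscaled signal was 205.5, 204.7, 399.8 and 307.6 intensity units on juvenile FV10 arrays A, B, C and D, against 340.0 to 773.6 on the other 16 juvenile arrays. FV10 A and B were thus the dimmest juvenile arrays. D was also dimmer than all 16 others, and only C lay within their range. Brightness and fluvoxamine were therefore partly confounded in juveniles. Adult arrays lay between 76.9 and 484.6 units.

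DM09934P1 had the largest margin of all, 5.95 on the log2 scale or 62.0-fold. On juvenile FV10 arrays A, B, C and D it read 8.28, 7.94, 4.34 and 5.34. In unscaled signal these were 63890, 50280, 8098 and 12480 intensity units, and no array was saturated. All 4 FV10 arrays therefore lay far above the 75th percentile of their array, with A and B above C and D. In FX40 juveniles the probe read -0.23, -0.52, 1.27 and 1.56, and in NP20 juveniles -1.09, -1.21, -1.65 and -0.96. In NP60 juveniles it read -1.07, -1.26, 1.21 and 1.48, against -2.08, -0.04, -0.58 and -0.67 in acetone juveniles. No other juvenile array came within 2 log2 units of the lowest FV10 array. The group means were 6.48 ± 1.94 in FV10, 0.52 ± 1.05 in FX40, -1.23 ± 0.30 in NP20, 0.09 ± 1.46 in NP60 and -0.84 ± 0.87 in acetone (SD, n = 4 each). The probe was well above background on all 40 arrays. It held the largest margin under every alternative computed for it, from 4.32 without FV10 A and B to 7.59 without C and D.

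**Figure D1:**
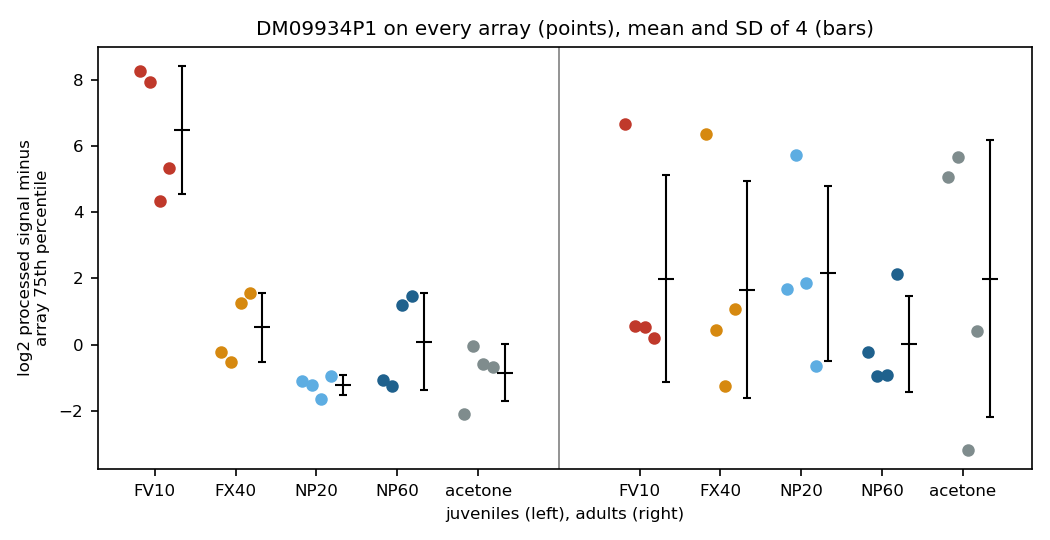
DM09934P1 on each of the 40 arrays, as log2 processed signal relative to the 75th percentile of its array (vertical axis), by treatment (horizontal axis) for juveniles on the left and adults on the right. Points are arrays and bars are the mean and SD of 4. The 4 juvenile FV10 arrays lie between 4.34 and 8.28, and among adults the arrays above 5 come from 4 different groups, acetone included.

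The rest of the members were separated by much less. The second largest margin was 3.02 (8.12-fold), for DM02049P3, and 11 members had a margin of at least 2. The median margin was 1.68 (3.21-fold) and the lowest 1.54 (2.91-fold), against a median of -0.13 over the 9432 filtered probes. In bulk RNA of whole animals, more cells of a type and more RNA per cell cannot be told apart.

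DM02049P3 read 1.11, 0.82, -0.95 and -1.53 on FV10 arrays A to D. It read -2.04, -4.38, -5.17 and -4.31 in FX40 juveniles and -2.31, -5.38, -2.48 and -3.42 in NP20 juveniles. NP60 juveniles had -6.21, -5.51, -3.88 and -2.15, against -2.52, -1.97, -4.22 and -3.93 in acetone juveniles. The 4 FV10 arrays lay above the other 16, with FV10 D and acetone B the nearest pair. Among those 16 arrays the probe was well above background on 1 of 4 in FX40, 3 of 4 in NP20, 1 of 4 in NP60 and 3 of 4 in acetone, so the size of its margin is uncertain. Without FV10 A and B it ranked 3 by margin.

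The limit of 100 fell in a dense part of the ranking. DM14830P2, the last probe inside, had a margin of 1.54 and read -0.18, -0.39, -2.43 and -1.96 on FV10 A to D, with group means of -2.78 in FX40, -2.96 in NP20, -3.02 in NP60 and -3.26 in acetone. DM03189P2, the first outside, also had a margin of 1.54. It read -1.60, -1.72, -4.30 and -3.24 on FV10 A to D, with means of -4.36, -4.26, -4.32 and -4.42 in FX40, NP20, NP60 and acetone. In both probes FV10 C fell within the range of the other juvenile arrays. The members at the limit therefore do not form a class apart from the probes just beyond it.

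As a set, the members had a median of -0.27 on juvenile FV10 A, -0.47 on B, -2.57 on C and -2.21 on D. The other 16 juvenile arrays had medians between -3.86 and -2.51, and the highest of them, FX40 A, stood above FV10 C. The median of the 9432 filtered probes moved little over the same arrays, at -0.91, -1.01, -1.14 and -1.10 on FV10 A to D and between -1.31 and -1.04 on the others. The contrast that chose the members was thus much larger on A and B than on C and D. The mean of A and B exceeded the mean of C and D in 99 of 100 members, by a median of 1.95 (range -0.10 to 3.27), where the filtered probes had a median of 0.27. The SD over the 4 FV10 arrays had a member median of 1.16, against 0.65 in FX40, 0.45 in NP20, 0.58 in NP60 and 0.69 in acetone.

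**Figure D2:**
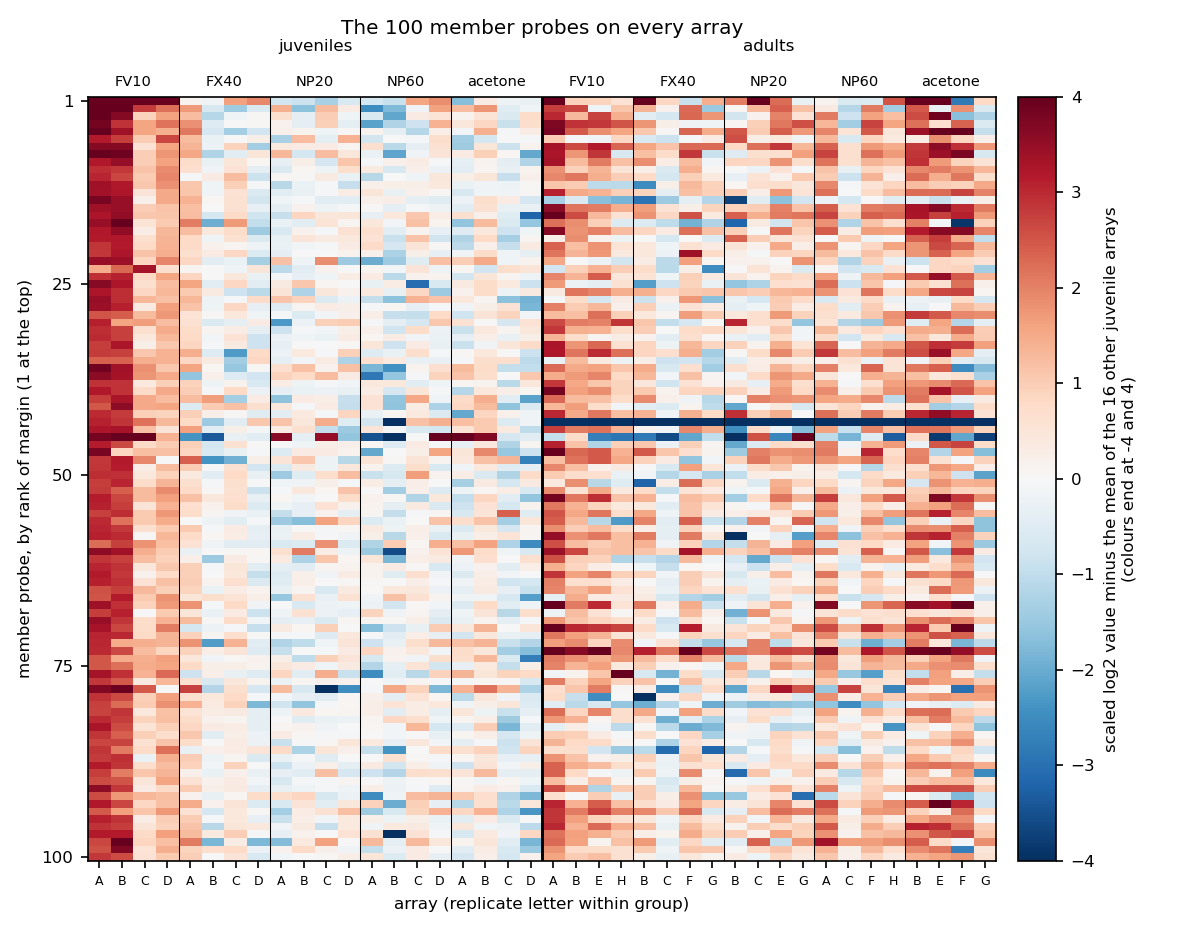
The 100 members (rows, largest margin at the top) on each of the 40 arrays (columns, by stage, treatment and replicate letter). Colour is the scaled log2 value minus that probe's mean over the 16 juvenile arrays other than FV10, with colours ending at -4 and 4. Juvenile FV10 A and B form a dark band with C and D paler beside it, and among adults single arrays such as FV10 A and acetone B, E and F are redder than the rest.

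**Figure D3:**
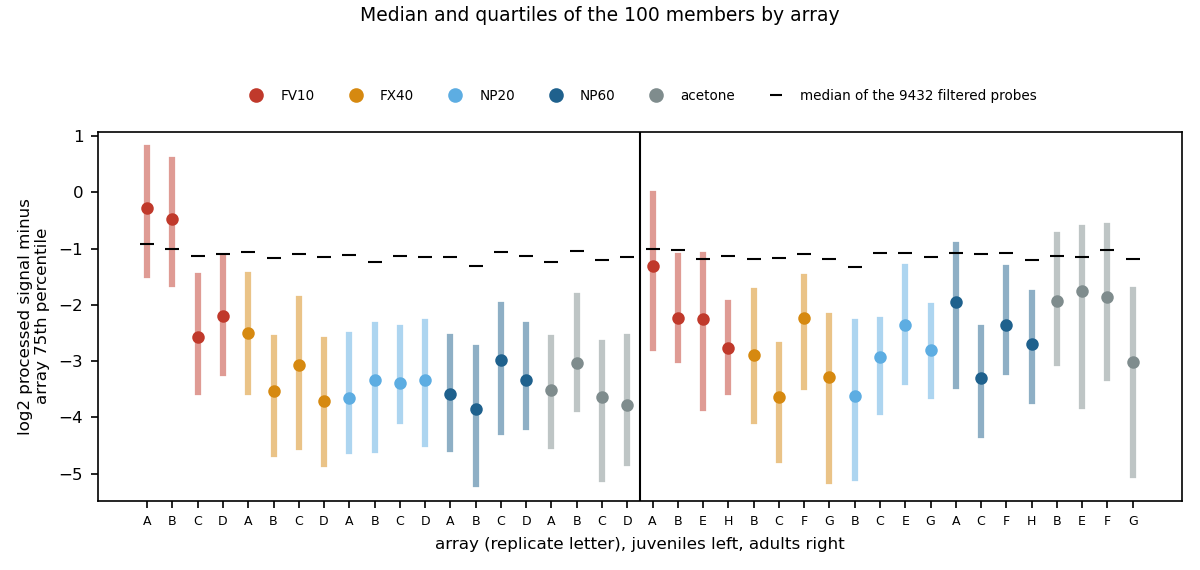
Median (point) and middle range from the 25th to the 75th percentile (bar) of the 100 members on each array, as log2 processed signal relative to the 75th percentile of its array, with the median of the 9432 filtered probes as a black dash. Juveniles are on the left and adults on the right. Member medians on juvenile FV10 A and B are -0.27 and -0.47, and all other arrays lie at or below -1.31.

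With the margin taken from A and B alone, every member stood at least 1.76 above the highest other group mean, with a median of 2.67. From C and D alone the median was 0.78 and the range 0.24 to 4.32, and 25 members exceeded 1, compared with 53 of the 9432 filtered probes. All 100 members remained above 0 on C and D, compared with 30.09% of the filtered probes, whose median was -0.20. The rule used these arrays too, so the count is a description. Array by array, the median distance to the highest other group mean was 2.75 on A, 2.55 on B, 0.54 on C and 1.07 on D. It was positive for 100, 100, 96 and 97 members on these 4 arrays, compared with 52.6%, 46.48%, 29.6% and 41.4% of the filtered probes. Picking 100 probes again without A and B returned 37 of the members, and without C and D 60.

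**Figure D4:**
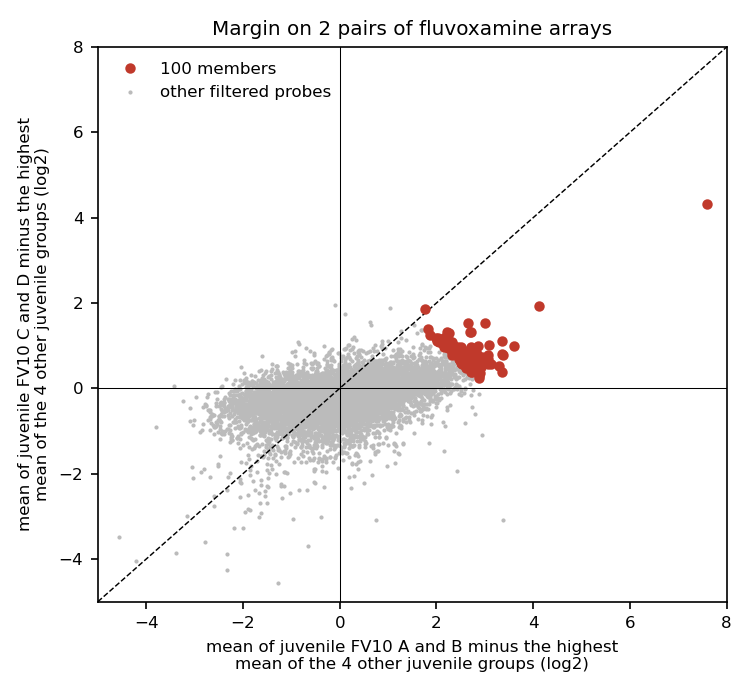
Margin over the highest other juvenile group mean computed from FV10 arrays A and B (horizontal axis) and from C and D (vertical axis), in log2 units, for the 100 members (red) and the other filtered probes (grey). The dashed line marks equal values. All members but 1 lie below it, with C and D margins of 0.24 to 4.32 against A and B margins of 1.76 to 7.59, and DM09934P1 stands alone at the upper right.

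Comparison with single arrays gave the same order. FV10 A lay above all 16 other juvenile arrays for 99 members, B for 98, C for 24 and D for 65, where the shares of the filtered probes were 34.53%, 26.45%, 4.294% and 11.08%. All 4 FV10 arrays lay above all 16 for 18 members, and at least 3 did for 70, against 0.774% and 8.37% of the filtered probes. These contrasts were used by the rule, and nothing is read from the difference. In 47 members C was the only FV10 array that overlapped the others, in 5 it was D, and in 27 both C and D overlapped. Whichever arrays they were, exactly 3 lay above all 16 for 52 members and exactly 2 for 28. The shares of the filtered probes were 7.591% and 16.59%. The mean of the 4 FV10 arrays was above every one of the 16 for 95 members, where it was for 15.14% of the filtered probes.

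FV10 A, B and D were dimmer than the other 16 juvenile arrays, so the members were also compared without scaling. In unscaled intensity the member median was 170.3 on FV10 A, 147.8 on B, 67.27 on C and 66.65 on D, against 26.11 to 67.6 on the other 16 juvenile arrays. Without scaling the margin stayed above 0 for all 100 members, with a median of 0.99 against -0.91 for the filtered probes. This sign was fixed by the choice of the members and is no check on brightness. The mean log2 75th percentile was 8.07 in juvenile FV10 and 8.57 to 8.97 in the other juvenile groups. That gap was smaller than the lowest scaled margin of 1.54. Unscaled, A lay above all 16 others for 86 members, B for 84, C for 17 and D for 35, compared with 7.061%, 5.354%, 1.156% and 1.41% of the filtered probes. Normexp fits a normal-plus-exponential model to the intensities of an array after local background subtraction. Here it also added an offset of 50 units to every spot, which by itself narrows log2 differences between weak signals. With both steps the median margin fell to 0.51, with 94 members above 0, and the share of the offset was not tested. When 100 were picked again normexp returned 24 members, where quantile normalization returned 85 and no scaling 75. After normexp, the member median was -0.43, -0.48, -1.76 and -1.67 on FV10 A to D. All 4 stood above 14 of the 16 other juvenile arrays, which lay between -2.88 and -1.82, but NP60 C (-0.15) and acetone A (-0.24) stood above all 4. Over the 16 other juvenile arrays the scaled member median had a Pearson r of -0.41 with log2 brightness (Spearman rho -0.30). Without the 2 arrays farthest from the median brightness r was -0.27. The 75th percentile is subtracted from every scaled value, so part of a negative r is built in. The part of brightness in the result was not tested.

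Of the other juvenile groups, FX40 came nearest. It had the highest mean of the 4 for 59 members, acetone for 15, NP20 for 14 and NP60 for 12, where the shares of the filtered probes were 34.22%, 26.46%, 17.94% and 21.37%. FX40 A was the highest of the 16 arrays for 57 members, compared with 15.95% of the filtered probes, and FX40 B, C and D were so for 1, 6 and 1 members. Member medians were -2.51, -3.53, -3.07 and -3.72 on FX40 A to D and -3.52, -3.03, -3.63 and -3.77 on acetone A to D. The median of the members' differences from acetone was 0.31 in FX40, 0.08 in NP20 and 0.09 in NP60, each within the spread between arrays of a group, and 2.09 in FV10 (range 1.56 to 7.32).

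Members were mostly weak probes outside FV10, which the rule favours through its margin and its background filter on FV10 arrays alone. In juvenile acetone 93 lay below the median of the filtered probes, and in juvenile FV10 59 did. Their median level was -1.37 in FV10, -3.23 in FX40, -3.40 in NP20, -3.56 in NP60 and -3.45 in acetone, while the filtered probes had -1.11 in FV10 and -1.20 in acetone. On the 16 other juvenile arrays, 39 members were well above background throughout, compared with 78.16% of the filtered probes. Another 16 were so on fewer than 8, and 12 had at least 1 group in which no array was well above background. Some of their values outside FV10 thus lay near the detection limit. A group without detection enters the margin only where its mean was the highest of the 4. For 0 members did all 4 groups lack detection. No member was saturated on any array. Only 5 members were spotted in duplicate, and their spots differed by a median of 0.17 and at most 0.75 on the FV10 arrays. Probe IDs ending in P4 made up 16 members, compared with 8.005% of the filtered probes, and those ending in P1 made up 32, compared with 40.18%. The files do not say what these endings mean.

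Arrays lay on 7 slides, and each juvenile FV10 array shared a slide with 2 other juvenile arrays. On slide 2 members were higher on FV10 A by a median of 3.23 over NP20 A and 2.73 over NP60 C. On slide 7 FV10 B exceeded acetone A by 3.05 and NP60 B by 3.27. On slide 6 FV10 C exceeded acetone D by 1.09 (93 of 100 members) and NP20 B by 0.87 (91 members). On slide 3 FV10 D exceeded NP20 C by 1.20 (94 members) and FX40 A by 0.46 (77 members). The median difference of the filtered probes in these pairs lay between -0.11 and 0.43. In the pairs of slides 6 and 3, in the order given, 44.82%, 49.58%, 55.83% and 48.56% of them were higher on the FV10 array. The differences on the slides of A and B were thus larger than those on the slides of C and D.

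In adults the members did not form a group of high values under fluvoxamine. The member median was -1.31, -2.24, -2.25 and -2.77 on adult FV10 arrays A, B, E and H, and -1.94, -1.76, -1.87 and -3.02 on acetone arrays B, E, F and G. Adult FX40 arrays B, C, F and G had -2.89, -3.64, -2.24 and -3.28. NP20 arrays B, C, E and G had -3.63, -2.93, -2.35 and -2.80, and NP60 arrays A, C, F and H had -1.95, -3.31, -2.36 and -2.70. FV10 and acetone covered nearly the same range, while FX40 and NP20 arrays lay below all acetone arrays but G. Averaged over arrays the medians were -2.14 ± 0.61 in FV10, -3.01 ± 0.60 in FX40, -2.93 ± 0.53 in NP20, -2.58 ± 0.57 in NP60 and -2.15 ± 0.59 in acetone (SD, n = 4 each). Of the members, 94 were well above background on at least 4 adult arrays and were tested among 12547 probes with limma, 6 did not pass that filter, and 2 of these were above background on no adult array.

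Adult FV10 was compared with acetone to see whether the juvenile pattern was present after the longer exposure. The median log2 change of the 94 tested members was -0.04, with 43 above 0, where all tested probes had a median of 0.10 and 58.1% above 0. At the adjusted threshold limma called 0 members (0.0% of all probes higher and 0.0% lower). At an unadjusted p under 0.05 it had 5 members higher and 1 lower, where 5.33% and 2.72% of all probes were. The median standard error of a member was 0.60 and its 95% interval ±1.26, so smaller changes could not be told from the spread between arrays. The 4 FV10 arrays lay above the 4 acetone arrays for 2 members and below them for 1, compared with 2.81% and 2.17% of all probes. The median change was -0.36 without FV10 A, -0.40 without acetone G and 0.20 without FV10 H. The balance of unadjusted calls also turned, with 2 members higher and 9 lower without acetone G (4.569% and 3.668% of all probes), and 2 higher and 10 lower with the replicate block (3.873% and 2.981%).

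At the upper end of that comparison DM09810P3 read -2.86, -3.47, -3.53 and -2.64 in adult FV10, against -6.00, -3.94, -6.67 and -5.88 in acetone. The groups did not overlap, but no acetone array was well above background and 3 of the 4 FV10 arrays were. With the acetone values set no lower than the dimmest probe well above background on the same array, DM09810P3 averaged 3.22-fold higher in FV10. That figure leaves out the spread between arrays and is no lower bound. The limma fit gave a log2 change of 2.50 (SE 0.85, adjusted p = 0.531). At the lower end DM06256P4 read -1.97, -3.67, -5.25 and -2.76 in adult FV10, against -1.23, -0.999, -1.16 and -1.11 in acetone (limma log2 change -2.29, SE 0.85, adjusted p = 0.596). Its FV10 values did not overlap those of acetone either, and FV10 E was not well above background. In juveniles the same probe had a mean of -0.73 ± 0.91 in FV10 and -3.11 ± 0.65 in acetone (SD, n = 4 each).

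Adult FV10 was also set against the mean of the other 4 adult groups, the contrast nearest to the one that chose the members. The members' median was 0.56, with 85 of 94 above 0, where all tested probes had 0.11 and 62.7% above 0. Limma called 0 members (0.0% of all probes in either direction), with 14 higher and 0 lower at an unadjusted p under 0.05, compared with 2.97% and 2.34% of all probes. The median was 0.25 without FV10 A, 0.80 without FV10 H and 0.105 after normexp, where all probes had -0.08. The 14 members became 5, 31 and 4 in these fits, compared with 1.985%, 3.533% and 1.905% of all probes, and 6 with the replicate block (2.016%). DM09810P3 was again at the upper end (limma adjusted p = 0.865), but it was well above background on 1 of 4 FX40 arrays, 2 of 4 NP20 arrays and 0 of 4 NP60 or acetone arrays, so no size is given. DM06256P4 was at the lower end (log2 change -1.12, SE 0.67, limma adjusted p = 0.865). By group mean, acetone was the highest adult group for 49 members and FV10 for 39, compared with 26.05% and 24.71% of the filtered probes, and FX40 for 1 member, compared with 23.34%.

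The other 3 adult treatments were compared with the same 4 acetone arrays, so their results share those values. In adult FX40 the members' median change was -0.95 and 83 of 94 were below 0, where all probes had 0.06 and 46.0% below 0. Limma called 0 members, compared with 0.0478% of all probes called higher and 0.12% lower. At an unadjusted p under 0.05, 32 members were lower and 0 higher, compared with 7.84% and 6.9% of all probes. The 4 FX40 arrays lay below the 4 acetone arrays for 15 members, compared with 4.53%. Without acetone G 14 members were called, compared with 2.639% of all probes, and without FX40 F 1 was, compared with 0.2802%. With brightness as a covariate the 32 became 7, compared with 3.276% of all probes. FX40 arrays were all brighter than acetone arrays (75th percentile 279.6 to 484.6 against 76.9 to 217.7 intensity units). Treatment and brightness were therefore confounded in this comparison. DM06256P4 again marked the lower end, reading -7.14, -2.58, -1.93 and -2.90 in FX40 (log2 change -2.51, SE 0.85, limma adjusted p = 0.173), with FX40 B not well above background. The largest positive change was 1.13 for DM07177P1 (SE 0.77, limma adjusted p = 0.546), and the probe was well above background on 3 of 4 FX40 arrays and 1 of 4 acetone arrays.

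In adult NP20 the median change was -0.86, with 74 members below 0, where all probes had 0.04 and 47.7% below 0. Limma called 0 members (0.0% of all probes in either direction), with 33 lower and 0 higher at an unadjusted p under 0.05, compared with 8.98% and 6.58%. The groups did not overlap, with NP20 lower, for 18 members, compared with 4.14% of all probes. Without acetone G 1 member was called, and without NP20 C 2 were, where 0.6458% and 0.9724% of all probes were. The 33 became 21 without acetone F and 5 with brightness as a covariate, compared with 6.329% and 4.009%. DM13956P3 read -5.66, 0.01, -0.34 and -2.18 in NP20, against 2.90, 3.101, 2.05 and 0.97 in acetone (log2 change -4.30, SE 1.05, limma adjusted p = 0.129). The NP20 values lay below all acetone values, and NP20 B was not well above background. DM14326P4 had the largest positive change, 2.02 (SE 1.52, limma adjusted p = 0.545), with an SD of 4.11 over the 4 NP20 arrays, and was well above background on 3 of 4 NP20 arrays and 2 of 4 acetone arrays.

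In adult NP60 the median change was -0.50, with 70 members below 0, where all probes had 0.02 and 48.6% below 0. Limma called 0 members (0.0% of all probes in either direction), with 16 lower and 0 higher at an unadjusted p under 0.05, compared with 3.16% and 3.03%. The 16 became 34 without acetone G, 4 without NP60 C and 2 with brightness as a covariate, compared with 5.852%, 1.329% and 1.801% of all probes. NP60 lay below acetone on all arrays for 2 members, compared with 2.56%. The largest changes were -1.98 for DM09934P1 (SE 1.997, limma adjusted p = 0.877) and 1.32 for DM02853P4 (SE 0.94, limma adjusted p = 0.815), which was well above background on 4 of 4 NP60 arrays and 2 of 4 acetone arrays.

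**Figure D5:**
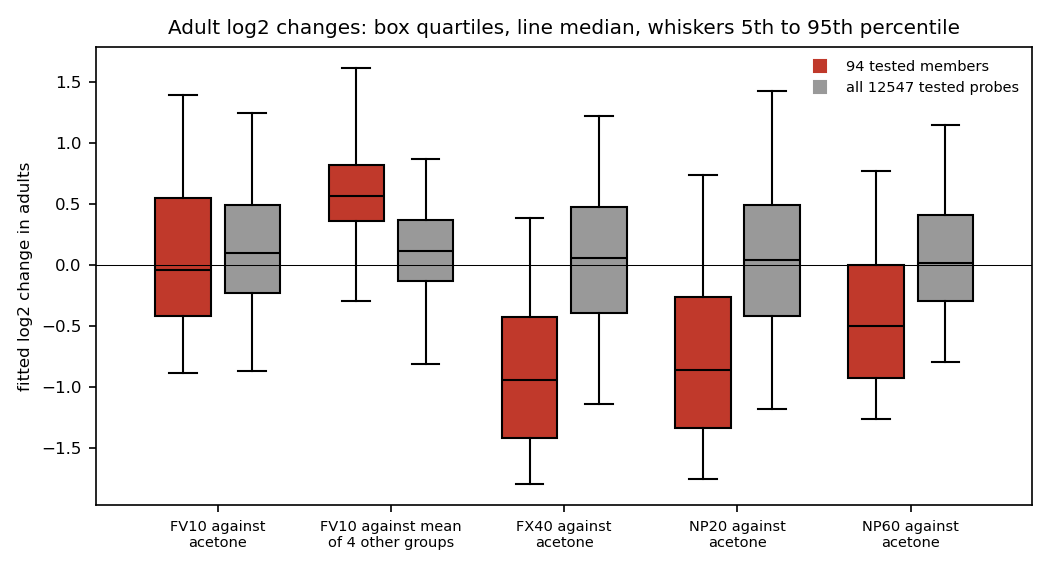
Fitted log2 changes of the 94 tested members (red) and all 12547 tested probes (grey) in the 5 adult comparisons. Boxes span the 25th to the 75th percentile with the median as a line, and whiskers reach the 5th and 95th percentiles. Member medians are -0.04 for FV10 against acetone, 0.56 for FV10 against the mean of the other groups, and -0.95, -0.86 and -0.50 for FX40, NP20 and NP60 against acetone.

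Several measures moved with these adult values. Over the 20 adult arrays the member median was lower on brighter arrays (log2 of the 75th percentile, Pearson r -0.64, Spearman rho -0.66, and r -0.54 without the 2 arrays farthest from the median brightness), a description over arrays that share treatments and slides. The same 75th percentile is subtracted from every value, so part of a negative correlation is built in, above all for weak probes. With brightness as a covariate the median changes were 0.12 for FV10, -0.47 for FX40, -0.38 for NP20 and -0.21 for NP60. Pairs on the same slide differed in direction. FX40 F was above acetone G by a member median of 0.66 on slide 4, while FX40 G was below acetone F by a difference of -1.60 on slide 3. NP20 differed by -1.801 on slide 1, -0.11 on slide 4 and -1.14 on slide 3, NP60 by -0.44 on slide 3 and -1.08 on slide 7, and FV10 by -0.59 on slide 7 and -1.26 on slide 3. With slide as a block in the fit the median changes were -0.17 for FV10, -1.06 for FX40, -0.81 for NP20 and -0.84 for NP60, with 0 members called.

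DM09934P1 varied widely among adult arrays within 4 of the 5 groups. It read 6.68, 0.55, 0.54 and 0.21 in adult FV10, and 6.35, 0.45, -1.25 and 1.09 in FX40. In NP20 it read 1.69, 5.73, 1.87 and -0.65, in NP60 -0.22, -0.94, -0.92 and 2.14, and in acetone 5.07, 5.68, -3.18 and 0.42. Arrays above 5 occurred in FV10, FX40, NP20 and acetone, and every group overlapped every other. Group means were 1.99 ± 3.13 in FV10, 1.66 ± 3.28 in FX40, 2.16 ± 2.64 in NP20, 0.01 ± 1.46 in NP60 and 1.99 ± 4.17 in acetone (SD, n = 4 each). The fitted difference of FV10 from acetone was -0.001 with a 95% interval of ±4.20 (limma adjusted p = 1), which is too wide to tell a large change in either direction from none. The juvenile FV10 arrays C and D, at 4.34 and 5.34, lay within the range of the adults, and A and B above it.

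Between adults and juveniles, the sign of the members' difference varied with the treatment. In adult FV10 the members lay below juvenile FV10 by a median difference of -0.78, and 19 of 100 were higher in adults. The differences of adults from juveniles were 0.15 in FX40, 0.51 in NP20, 0.87 in NP60 and 1.35 in acetone, with 61, 77, 85 and 83 members higher in adults. Over the filtered probes the differences were between -0.11 and 0.06. Of these probes 45.35% were higher in adults in FV10, 47.47% in FX40, 51.23% in NP20, 52.78% in NP60 and 51.81% in acetone. The juvenile values on which the members were chosen enter each difference, so no test was made. Against all adult groups, the juvenile FV10 mean was above all 5 adult means for 74 members, compared with 41.52% of the filtered probes. Juvenile FV10 A lay above all 20 adult arrays for 74 members, B for 66, C for 6 and D for 11, compared with 30.03%, 24.0%, 12.31% and 16.67% of the filtered probes. All 4 did for 3 members, compared with 5.746%, so the share was larger than that of the filtered probes on A and B and smaller on C and D. The members' median level in adult acetone, -2.10, lay between those of juvenile FV10 (-1.37) and juvenile acetone (-3.45), which the rule itself set apart.

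The members also varied together on the adult arrays, which took no part in the choice. Over the 20 adult arrays the median Pearson correlation between pairs of tested members was 0.42, against 0.02 between all tested probes. It was 0.43 with group means removed and 0.38 with brightness regressed out. Over the 16 other juvenile arrays, whose group means the rule used, it was 0.26, against 0.02. Points here are arrays that share treatments, slides and brightness, and these values are descriptions. Members were mostly weak probes, and tested probes of like intensity were not compared. Since members moved together, the adult counts of members are not counts of independent probes. FV10 A was the highest of the 20 adult arrays for 35 of 94 members, acetone E for 22 and acetone F for 15, compared with 8.847%, 7.046% and 10.59% of all tested probes. FX40 B, which was the highest array for 14.71% of all tested probes, was so for 0 members.

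Over the 20 adult arrays the other 93 members present in both stages had a median Pearson r of 0.16 with DM09934P1, against 0.03 for all probes compared. Over all 40 arrays, which include those that chose the members, DM00036P3 was most like it of 12345 probes (r 0.72, and 0.60 within the 20 adult and 0.81 within the 20 juvenile arrays). It was member number 99 by margin, with 0.77, 1.90, -1.24 and -0.35 on juvenile FV10 A to D and means of -1.27 in FX40, -1.54 in NP20, -2.005 in NP60 and -2.35 in acetone. The next, DM02138P4 (r 0.71, and 0.68 and 0.74 within adults and juveniles), was no member and ranked 447 by margin. It read 0.28, -0.29, -0.61 and -0.22 on juvenile FV10 A to D, a spread of 0.37 (SD), with means of -1.25, -1.93, -1.42 and -1.68 in FX40, NP20, NP60 and acetone. Unlike most members, this probe had FV10 arrays that lay close to each other. In adults its means were -0.87 in FV10, -1.60 in FX40, -1.21 in NP20, -1.04 in NP60 and -1.05 in acetone.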

How the data were processed

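RNA of whole animals was labelled with Cy3 and hybridised to single-colour Agilent arrays. Per the file headers, the authors used Agilent Feature Extraction 10.7.3.1 to quantify spots, and its deposited intensity per spot is background-subtracted and detrended. The deposited table of the series holds values on a log2 scale that followed quantile-normalized log2 signals centred within a stage (r 0.998 to 1 per array, column medians -0.0984 to 0.106 in adults and -0.0713 to 0.0931 in juveniles). How else that table was made is unknown here.

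Here the log2 processed signal, less that of the 75th percentile over non-control spots of its array, was averaged per probe (15208 spots, 14338 probes, 870 in duplicate). Groups came from the stage and treatment labels. The highest correlation between arrays was 0.9739, so none was treated as a duplicate. Adult probes well above background on at least 4 arrays entered a limma fit (version 3.58.1, R 4.3.3) of the 20 adult arrays, adjusted by Benjamini-Hochberg over all tested probes at 0.05. The number of arrays per group limits the precision. The fit was tested on simulated data.

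The members, the rule for named probes and the tests were chosen with earlier results of these data known. The rule names the 2 largest margins, the probes at either side of the limit, the largest change in each direction per adult comparison, and the 2 probes most like DM09934P1. Replicate letters recur between adult groups. Deviations of same-lettered arrays correlated at 0.275, 0.194 and 0.315 in FX40 and acetone (B, F and G), so replicate letter entered an alternative as a block. The block covered all letters and every adult comparison, although the other treatments had a letter under 0.1 or fewer than 3 letters shared with acetone. Alternatives were normexp (offset 50, on median signals, since the files hold no mean signals), quantile normalization, the deposited table, no dim filter, outlier spots left out, fewer groups, replicate block, slide block and single arrays left out. Brightness as a covariate, no scaling, and leaving out FV10 A and B or C and D were added after seeing the data.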

Additional observations from a re-analysis of the deposited data

Results flagged for a closer look

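Values of the member median and of the 12 named probes were examined for a single array far from the other 3 of its group. Of 130 groups of 4 looked at, 7 held such an array, and chance gives about 1 in 20 groups. The member median on adult acetone G was -3.021, with the other acetone arrays between -1.935 and -1.758. DM09934P1 on adult FV10 A read 6.676, with the others between 0.206 and 0.554. DM00036P3 stood high on the same array at 0.015, against -1.191 to -1.041, and stood low on adult FX40 C at -1.957, against -0.752 to -0.674. DM14326P4 on juvenile FV10 D read 1.02, where the others read 3.476 to 3.735. DM02853P4 on juvenile FV10 A read 0.357, against -2.577 to -2.225. The same probe on adult NP20 B read -4.855, against -1.648 to -1.404.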

How the results depend on the processing

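Of 231 alternative values computed, 220 stayed within the limits set for them. The limits were wide, and the count therefore says little about stability. A member median going from 0.563 to 0.105 after normexp (adult FV10 against the other adult groups) counted as within them. So did -0.945 going to -0.472 in FX40 with brightness as a covariate, and 72 of 100 members picked again without juvenile FV10 C. The member median for adult FV10 against acetone lay near 0 (-0.038), with 0 members called, and took either sign, at 0.117 with brightness as a covariate and 0.196 without FV10 H. Normexp correction moved the most. It gave a member median of -0.725 for adult FV10 against acetone (all probes -0.676) and -1.085 for NP60 (all probes -0.779), called 80 members in FX40 and 42 in NP60, where 60.96% and 43.1% of all probes were called and all probes shifted by -0.938 and -0.779, and returned 24 of the 100 members when they were picked again. Quantile normalization and the deposited table each returned 85 members. Leaving out outlier spots returned 98, no dim filter 87 and no scaling 75. Without juvenile FV10 A and B 37 members were picked again, and without C and D 60. The cause was not tested. Leaving out single arrays gave 0 to 14 called members in FX40 and 0 to 2 in NP20, where up to 2.639% and 0.9724% of all probes were called, and 72 to 97 members picked again. Member medians ranged over these from -0.399 to 0.196 for FV10, -1.193 to -0.709 for FX40, -1.159 to -0.692 for NP20 and -0.881 to -0.233 for NP60.

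With the replicate block the member medians were -0.209 for FV10, -0.756 for FX40, -0.65 for NP20, -0.653 for NP60 and 0.236 for FV10 against the mean of the other groups, with 0 members called in each, so it changed no call. Over all probes the 21 calls in FX40 became 0 with the replicate block and 0 with slide as a block. With slide as a block, members lower at an unadjusted p under 0.05 were 24 in FX40, 18 in NP20 and 8 in NP60 (6.376%, 6.87% and 2.2% of all probes). For adult FV10 against acetone, normexp gave 0 members higher and 24 lower at that p, where 10.38% and 38.91% of all probes were. Outside FV10, many members lay near background, which limits what a small difference can show.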
